A study of Rattus norvegicus with 62 samples.

Results

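Phenytoin was compared with control solution in the hippocampus of male Wistar rats, on 14 of the 62 arrays of the study. The 7 arrays described as phenytoin hippocampus 1 to 7 and the 7 described as control hippocampus 1 to 7 were taken, with all probe sets that are not array controls (31042 of 31099). Phenytoin rats received the drug at 75 mg/kg x 2, as the label writes it, by gastric tube 2 times a day over 90 days, and control rats received the control solution on the same schedule; neither strain nor route differed between the groups, and the age was not given in the sources used here. Levetiracetam at 150 mg/kg x 2, on 7 further hippocampus arrays, and the brainstem and frontal cortex arrays of the same study are described only where named. The levetiracetam arrays were nevertheless part of the fit from which the spread was taken, and all 62 arrays were normalized together. Each value is a single-channel Affymetrix signal, analysed as log2(value + 16) after quantile normalization, so that a level of 8 against 7 is a doubling of signal plus 16. Of the 31042 probe sets, 18625 passed the filter that left out the dimmest 40%, and they stand for 10265 named genes. The labels speak of 7 rats in each group. P-values for probe sets measure the spread between arrays of the same group, with the levetiracetam group included. The tissue holds many cell types, so that fewer cells of a type and less RNA per cell cannot be told apart.

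Phenytoin is an antiseizure drug that binds voltage-gated sodium channels and holds them in the inactivated state, which limits high-frequency firing. The hippocampus is a forebrain structure with a circuit of dentate granule cells and CA3 and CA1 pyramidal cells, and it is a frequent site of seizure onset. The genes described are therefore those of the drug's target channels, other ion channels and synapses, followed by the cytoskeleton, energy and protein turnover, and the cell types of the tissue.

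One array went against its region label. On the array labelled phenytoin hippocampus 7, Ppp1r1b, which encodes the striatal phosphoprotein DARPP-32, read 11.53, against 7.83 to 8.39 on the other 20 hippocampus arrays. Penk, the enkephalin precursor, read 11.31 there against 7.04 to 8.04, the dopamine receptor gene Drd2 8.95 against 4.37 to 5.81, and the adenosine receptor gene Adora2a 8.76 against 4.09 to 5.64. Neurod6, a transcription factor of pyramidal neurons, read 7.85 on this array against 10.11 to 11.25. Fibcd1, a gene of CA1, read 4.71 against 7.72 to 8.73, and Prox1, the defining transcription factor of dentate granule cells, 7.39 against 8.81 to 9.43. Of the tested markers, 13 of 15 for striatum lay above all 20 other arrays, and 15 of 17 for CA1 to CA3 pyramidal cells and 8 of 10 for dentate granule cells lay below all of them. All 18 oligodendrocyte and myelin markers and 12 of 17 endothelium and pericyte markers were also above every other array. Neither of the other regions of the study reached these striatal levels, with Ppp1r1b at most 9.39 in frontal cortex and 8.38 in brainstem. Counts past the threshold are therefore given with this array and, where they change, mostly without it too. The counts of non-overlapping groups over all probe sets, of agreement between probe sets and of promoters are given with it only.

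**Figure D1:**
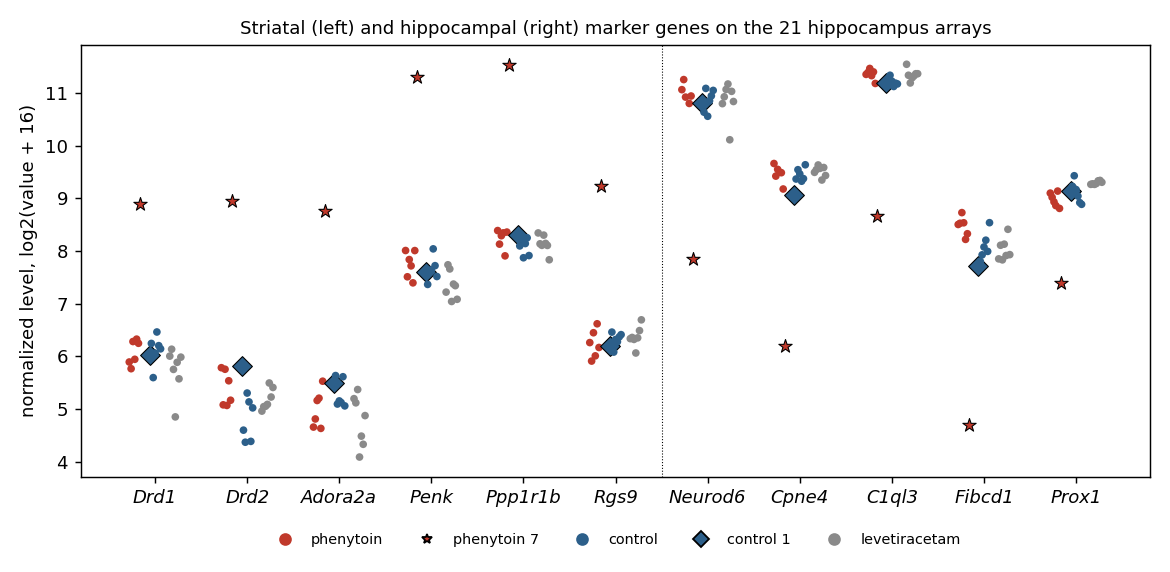
Normalized log2 level (vertical axis) of 6 striatal and 5 hippocampal marker genes (horizontal axis) on each of the 21 hippocampus arrays, coloured by treatment. The star, the array labelled phenytoin hippocampus 7, lies above all other points for the striatal genes and below them for the hippocampal genes; the diamond is control hippocampus 1.

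On the control arrays the region label held: of 10 dentate granule cell markers, 6 were above every control brainstem array and 5 above every control frontal cortex array, and of 17 CA1 to CA3 markers 13 and 11. Control hippocampus 1 stood apart in another way, with hippocampal markers at the level of the other arrays but an array weight of 0.31, where the array labelled phenytoin hippocampus 7 had 0.15 and the other 12 arrays of the comparison 0.77 or more. Its spike-in signal, the mean of 18 hybridisation control probe sets, was 11.54 on the log2 scale, the highest of the 14. Phenytoin hippocampus 4 had no value for 4799 probe sets, which were left missing. The Gapdh 3′ to 5′ ratio, which rises where the labelled RNA is shorter, was 0.39 ± 0.10 (log2, SD, n = 7) with phenytoin, 0.24 ± 0.12 (n = 7) with control solution and 0.27 ± 0.034 (n = 7) with levetiracetam. It was higher with phenytoin than with control solution (exact two-sided permutation p = 0.0233, 0.0466 after adjustment over 4 measures), and the spike-in signal was lower, at 10.51 ± 0.17 against 10.86 ± 0.32 (exact permutation p = 0.00583, adjusted p = 0.0233; the smallest p this design allows is 0.000583). The difference in the Gapdh ratio was 0.122 without the array labelled phenytoin hippocampus 7 (exact permutation p = 0.0501, n = 6 against 7) and 0.114 without control hippocampus 1 (exact permutation p = 0.0501, n = 7 against 6). The beta-actin ratio differed by 0.153 (exact permutation p = 0.163, n = 7 each).

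**Figure D2:**
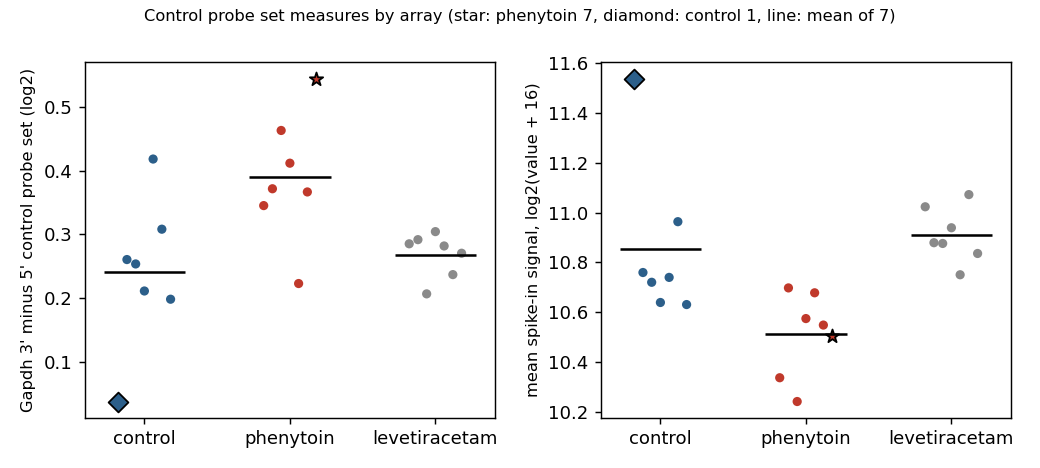
Gapdh 3′ minus 5′ log2 signal (left) and mean log2 spike-in signal (right) on each of the 21 hippocampus arrays, with the mean of 7 arrays per treatment as a line. The phenytoin mean is 0.389 against 0.241 in the controls for the ratio and 10.51 against 10.86 for the spike-in signal, with overlapping arrays in both panels.

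Phenytoin was followed by many small differences in both directions. At an adjusted p under 0.05, 847 probe sets (4.55% of those tested) were higher and 874 (4.69%) lower than with control solution, which is 1721 or 9.24% in all. They named 558 genes that rose and 670 that fell. The median size was 0.37 among those that rose and -0.36 among those that fell, and only 2 and 3 probe sets passed a 2-fold difference. The groups did not overlap at 123 probe sets in the higher direction (0.66% of those tested) and 104 in the lower (0.558%). Without the array labelled phenytoin hippocampus 7, 1224 probe sets were higher (6.57%) and 1062 lower (5.7%), 2286 or 12.3% in all; the 1515 shared calls were 88% of the first set and 66.3% of the second, and all 1721 kept their sign. Without that array the calls named 816 genes that rose and 813 that fell, and 4 and 5 probe sets passed a 2-fold difference. Without phenytoin hippocampus 3 or without control hippocampus 2 the total was 905. With the Gapdh ratio as a covariate 17 probe sets passed, of which 16 were among the 1721, and all 1721 kept their sign at a median 0.76 of their size; with the spike-in signal as covariate 43 passed. Without the array labelled phenytoin hippocampus 7 those covariates left 222 and 223. The part of RNA quality and labelling in these differences was not tested.

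**Figure D3:**
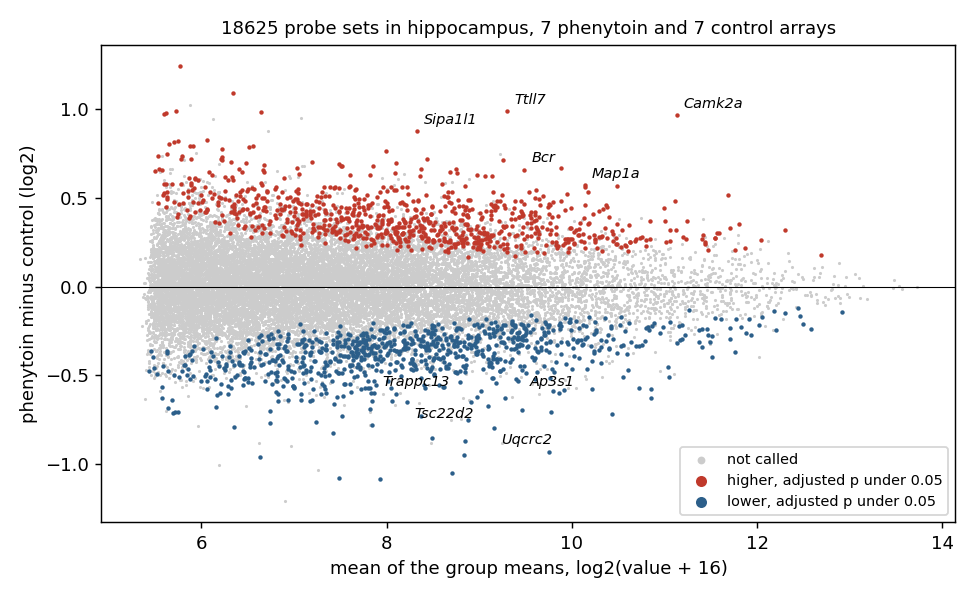
Phenytoin minus control difference (log2, vertical axis) against the mean level (horizontal axis) for the 18625 probe sets tested, 847 of them higher (red) and 874 lower (blue) at an adjusted p under 0.05. Most coloured points lie within 1 log2 unit of 0, and both directions span dim and bright probe sets.

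The genes that rose are described first, by the 12 with the smallest p at a mean level of at least 7. Bcr, the gene of the breakpoint cluster region, read 9.60, 9.78 and 10.20 on the phenytoin arrays (lowest, median and highest) and 8.94, 9.14 and 9.32 on the control arrays. Every phenytoin array lay above every control array, with a difference of 0.66 ± 0.08 (log2 difference, standard error; limma adjusted p = 0.000434), and the array labelled phenytoin hippocampus 7 was the highest. Sipa1l1, a Rap GTPase-activating protein of dendritic spines, read 8.44, 8.76 and 8.99 on the phenytoin arrays and 7.64, 7.82 and 8.22 on the control arrays. It was 1.84 times as high with phenytoin on the log2(value + 16) scale (0.88 ± 0.11, adjusted p = 0.000434), again with no overlap. Map1a, a microtubule-associated protein of mature neurons, read 10.17, 10.52 and 10.58 on the phenytoin arrays and 9.63, 9.86 and 10.06 on the control arrays. The groups were apart for this gene as well, by 0.57 ± 0.08 (adjusted p = 0.000668). Rab11fip4, which tethers Rab11 on recycling endosomes, read 8.97, 9.08 and 9.44 on the phenytoin arrays and 8.44, 8.65 and 8.80 on the control arrays. Its difference was 0.49 ± 0.07 (adjusted p = 0.000832).

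The other 8 include genes of nuclear proteins. Chd3, the helicase of the NuRD chromatin complex, read 8.87, 9.32 and 9.68 on the phenytoin arrays and 8.43, 8.68 and 8.81 on the control arrays, a difference of 0.63 ± 0.10 (adjusted p = 0.00154). Satb1, a chromatin organizer, read 8.06, 8.24 and 8.51 on the phenytoin arrays and 7.44, 7.66 and 7.84 on the control arrays, a difference of 0.56 ± 0.09 (adjusted p = 0.00151). In neither case did the groups overlap. The differences were 0.55 for the Polycomb protein gene Cbx6, 0.45 for the calmodulin-binding transcription activator Camta1, 0.58 for the ubiquitin ligase adaptor Zswim8, 0.45 for the ankyrin repeat gene Ankrd17, 0.32 for the ubiquitin ligase gene Ttc3 and 0.44 for Aplp1, a relative of the amyloid precursor protein. Adjusted p-values of these 6 ran from 0.000832 to 0.00162.

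The same rule gave 12 genes that fell. Trappc13, a subunit of the TRAPP tethering complex, read 7.54, 7.62 and 7.85 on the phenytoin arrays and 8.01, 8.09 and 8.24 on the control arrays. All phenytoin arrays lay below all control arrays, with a difference of -0.47 ± 0.07 (adjusted p = 0.000668). Ap3s1, the sigma subunit of the AP-3 adaptor that sorts cargo to lysosomes and synaptic vesicles, read 9.01, 9.24 and 9.55 on the phenytoin arrays and 9.60, 9.65 and 9.95 on the control arrays. It fell without overlap (-0.47 ± 0.07, adjusted p = 0.000832), and control hippocampus 1 was the highest array. Fnip1, a partner of folliculin, read 8.80, 8.96 and 9.01 on the phenytoin arrays and 9.24, 9.34 and 9.56 on the control arrays, a difference of -0.45 ± 0.07 (adjusted p = 0.000832). Kpna1, an importin alpha, read 10.31, 10.52 and 10.95 on the phenytoin arrays and 10.98, 11.10 and 11.40 on the control arrays, a difference of -0.58 ± 0.09 (adjusted p = 0.00127). Tsc22d2 read 7.74, 7.92 and 7.97 on the phenytoin arrays and 8.13, 8.48 and 8.98 on the control arrays, a difference of -0.65 ± 0.10 (adjusted p = 0.000832). Of these genes none had a phenytoin array within the control range.

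Spry2, an inhibitor of receptor tyrosine kinase signalling, read 8.63, 8.91 and 9.52 on the phenytoin arrays and 9.44, 9.58 and 9.74 on the control arrays. It differed by -0.63 ± 0.09 (adjusted p = 0.000848), with phenytoin hippocampus 5 within the control range. The differences of the other members were -0.42 for the SNARE-associated protein gene Snapin, -0.57 for the mitophagy receptor gene Fundc1, -0.41 for the mitochondrial ribosomal protein gene Mrps14, -0.49 for the endocytic adaptor gene Eps15 and -0.36 for Inka2, with adjusted p from 0.00127 to 0.00212. Slc1a3, the astrocyte glutamate transporter GLAST, was named by its dimmest tested probe set, which fell (-0.60, adjusted p = 0.00141), while its brightest probe set stood at 0.06 (adjusted p = 0.654).

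All 24 genes stayed past the threshold without the array labelled phenytoin hippocampus 7. In 22 of the 24 the groups did not overlap, with 7 or with 6 phenytoin arrays. Over all probe sets tested, 0.66% did not overlap in the higher direction and 0.558% in the lower, with 7 phenytoin arrays. The 24 genes were chosen for the smallest p on these same arrays, so both of their counts follow largely from that choice. With the Gapdh ratio as a covariate 7 of them passed, namely Bcr, Sipa1l1, Map1a, Ttc3, Trappc13, Snapin and Fundc1, and with the spike-in covariate 19. Those 7 passed in every alternative run for them. The other genes that passed with this covariate and without it were Rai1, a nuclear protein (0.46, and 0.61 with the covariate), the RNA helicase Helz (0.70 and 0.88), the endocytic scaffold Itsn1 (0.46 and 0.51), the glutaredoxin Glrx3 (-0.31 and -0.37), the translation initiation factor Eif2a (-0.55 and -0.62) and a dim probe set of Id4 (-0.53 and -0.66), beside 3 probe sets without a gene name. Of these 6, Helz and Itsn1 passed in every alternative run for them. Phenytoin hippocampus 5, whose Gapdh ratio of 0.223 was the lowest of the phenytoin arrays, lay nearest to the controls for 16 of the 24 genes. Control hippocampus 7, with a ratio of 0.198, lay nearest to the phenytoin arrays for 13. Control hippocampus 5, with the highest control ratio of 0.418, did so for 3. A relation between the ratio and the nearest array was not tested.

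**Figure D4:**
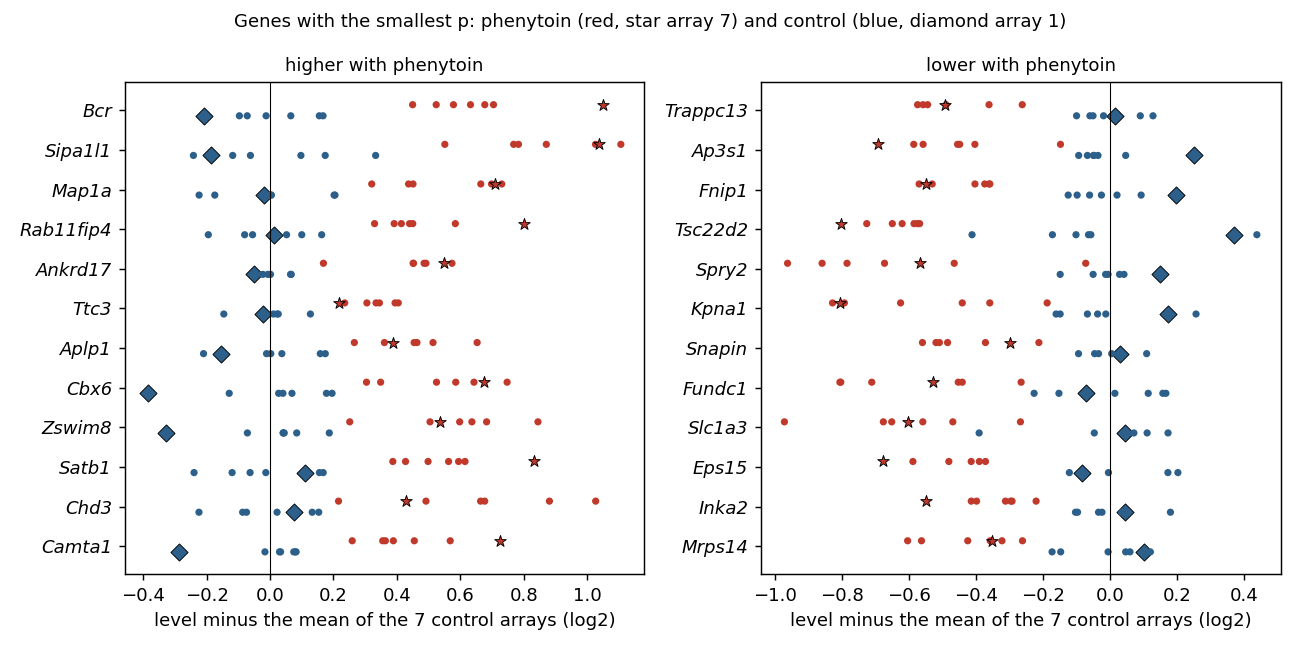
Level on each of the 14 arrays minus the mean of the 7 control arrays (log2, horizontal axis) for the 12 genes per direction with the smallest p. Red phenytoin points and blue control points overlap for Spry2 and Slc1a3 and for none of the other 22 genes; stars mark the array labelled phenytoin hippocampus 7 and diamonds control hippocampus 1.

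Promoter sequences of 5 such genes are shown because the first 3 are among the genes with the smallest p in either direction and the last 2 belong to the proteasome genes that fell together, described further on. They are RefSeq promoters of build GRCr8, windows of 300 bases that hold the annotated start near their end, for Bcr at chr20:13596284-13596583 (minus strand), Sipa1l1 at chr6:107570388-107570687 (plus strand), Trappc13 at chr2:37035788-37036087 (minus strand), Psma1 at chr1:177887808-177888107 (minus strand) and Psmc6 at chr15:21022064-21022363 (plus strand). Capitals mark the GC box GGGCGG on either strand, the letters bound by Sp1-type factors.
Bcr: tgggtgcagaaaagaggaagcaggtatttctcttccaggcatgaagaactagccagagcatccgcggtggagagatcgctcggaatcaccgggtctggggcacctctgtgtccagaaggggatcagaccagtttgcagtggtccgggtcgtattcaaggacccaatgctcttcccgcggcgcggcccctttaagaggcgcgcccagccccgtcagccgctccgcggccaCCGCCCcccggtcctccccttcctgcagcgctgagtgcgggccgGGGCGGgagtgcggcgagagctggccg
Sipa1l1: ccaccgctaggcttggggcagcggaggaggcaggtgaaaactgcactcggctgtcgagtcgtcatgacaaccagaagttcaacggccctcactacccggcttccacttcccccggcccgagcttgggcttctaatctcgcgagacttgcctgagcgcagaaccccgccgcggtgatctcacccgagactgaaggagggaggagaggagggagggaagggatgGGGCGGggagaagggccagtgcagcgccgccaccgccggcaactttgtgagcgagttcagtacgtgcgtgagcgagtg
Trappc13: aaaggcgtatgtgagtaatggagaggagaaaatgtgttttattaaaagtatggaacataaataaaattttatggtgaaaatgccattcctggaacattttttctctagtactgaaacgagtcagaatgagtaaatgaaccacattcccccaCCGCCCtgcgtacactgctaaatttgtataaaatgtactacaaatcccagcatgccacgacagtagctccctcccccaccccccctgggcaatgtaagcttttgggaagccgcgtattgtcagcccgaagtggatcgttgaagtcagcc
Psma1: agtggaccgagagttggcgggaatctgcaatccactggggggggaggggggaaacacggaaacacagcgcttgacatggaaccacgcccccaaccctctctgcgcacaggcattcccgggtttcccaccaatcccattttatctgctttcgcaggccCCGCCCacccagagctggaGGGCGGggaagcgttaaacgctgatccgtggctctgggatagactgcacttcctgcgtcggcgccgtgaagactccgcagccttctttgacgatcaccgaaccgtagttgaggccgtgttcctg
Psmc6: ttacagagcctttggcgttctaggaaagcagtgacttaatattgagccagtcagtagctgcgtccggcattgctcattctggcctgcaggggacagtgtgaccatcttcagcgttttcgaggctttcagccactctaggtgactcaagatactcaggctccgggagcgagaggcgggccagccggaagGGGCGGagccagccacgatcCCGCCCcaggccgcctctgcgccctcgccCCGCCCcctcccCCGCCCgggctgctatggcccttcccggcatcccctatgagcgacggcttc

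The Trappc13 window held 43.7% G and C, against 66% for Bcr, 64.3% for Sipa1l1, 61% for Psma1 and 63.7% for Psmc6. The window of Ap3s1, which also fell and is not printed here, held 63.3% and 3 GC boxes. Over genes with a promoter in the table, the median GC content was 64.7% among 459 that rose, 61.3% among 562 that fell (genes with probe sets past the threshold in both directions left out) and 61.7% among the 8612 tested. A GC box was present in 69.5% of the promoters of genes that rose, 65.1% of those that fell, 64.4% of those tested and 34.9% of all 27457 promoters. The core of the antioxidant response element, TGACNNNGC on either strand, was in 18.1%, 18%, 14.4% and 12.2% of the same sets, and in 5 of 27 promoters of tested proteasome genes. These are descriptions of letters in a window.

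Voltage-gated sodium channels are the targets of phenytoin. Of 11 tested channel subunits and partners, each taken by its brightest probe set, Scn3a alone rose and none fell, beside 4.74% of 10265 genes that rose and 4.36% that fell on the same terms. Scn3a, an alpha subunit prominent in the developing brain, read 7.77, 7.95 and 8.20 on the phenytoin arrays and 7.27, 7.55 and 7.96 on the control arrays. Its groups overlapped at 4 phenytoin arrays below the highest control, and it was higher by 0.41 ± 0.10 (adjusted p = 0.0146). Scn3a did not pass in 7 of 34 alternative settings. None of the 11 passed with the Gapdh covariate or with the spike-in covariate, and on the deposited scale Scn1a rose as well. Scn1a, the alpha subunit of fast-spiking interneurons, read 8.41, 8.58 and 9.56 on the phenytoin arrays and 7.81, 8.39 and 8.54 on the control arrays, a difference of 0.42 ± 0.14 (adjusted p = 0.0582), and the array labelled phenytoin hippocampus 7 was the highest. Scn2a, an alpha subunit of principal neurons, read 8.995, 9.53 and 9.72 on the phenytoin arrays and 9.18, 9.24 and 9.43 on the control arrays, with the same array the lowest of all 14. Its difference of 0.20 ± 0.08 did not pass (adjusted p = 0.117) with that array and did without it, at 0.28 (adjusted p = 0.00452). Scn8a, the alpha subunit of mature axon initial segments, was dim at 5.17, 5.86 and 6.02 on the phenytoin arrays and 5.39, 5.76 and 5.93 on the control arrays, and differed by 0.05 ± 0.12 (adjusted p = 0.822). Second probe sets of the beta subunit gene Scn2b (-0.51, adjusted p = 0.0273) and of Fgf12, a channel-binding protein (-0.33, adjusted p = 0.00981), neither the brightest of its gene, fell. The median over the 11 was 0.14, against 0.0027 over all probe sets tested. The shares of all genes that rose (4.74%) and fell (4.36%) apply to each list below, also where they are not repeated. Without the array labelled phenytoin hippocampus 7 they were 6.98% and 5.72%. On the deposited scale 5.01% of probe sets were higher and 4.92% lower. Stability differed between the genes named below. Of 34 alternative settings, Nr4a2 did not pass in 21, Grm3 and Atp1b2 in 20, and Syn1, Rbfox3, Reln and Rpl21 in 19. Shank3 and Gsta1 did not pass in 18, Vamp2 in 17, and Kcna1 and Grin2c in 15. Dync1h1 did not pass in 3, and Camk2g and Grin1 in 2.

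Among 15 calcium channel subunits 1 rose with all arrays and 5 without the array labelled phenytoin hippocampus 7. Of all genes, 4.74% and 6.98% rose on the same terms. Cacna1g, a low-threshold T-type channel, read 5.32, 6.21 and 6.54 on the phenytoin arrays and 4.52, 5.35 and 6.06 on the control arrays. The array labelled phenytoin hippocampus 7 was the lowest of its group, and the difference was 0.82 ± 0.22 (adjusted p = 0.0236) with it and 0.96 (adjusted p = 0.00522) without it. The 4 genes added without it were the P/Q-type subunit Cacna1a, the N-type subunit Cacna1b, the T-type subunit Cacna1h and the auxiliary subunit Cacna2d1.

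Potassium channels, counted with the HCN pacemaker channels, gave 3 that rose and 2 that fell of 25, beside 4.74% and 4.36% of all genes. Kcnab2 and Kcnj6 also rose without the array labelled phenytoin hippocampus 7. The genes that rose were Kcnc1, a fast-spiking channel of the Kv3 family (0.32, adjusted p = 0.0141), and the Kv1 channels Kcna1 (0.30, adjusted p = 0.0282) and Kcna6 (0.45, adjusted p = 0.0352). Kcna4, an A-type Kv1 channel, fell (-0.53, adjusted p = 0.0212), as did Kcnk1, a two-pore leak channel. Kcnk1 read 6.19, 6.59 and 6.98 on the phenytoin arrays and 6.93, 7.06 and 7.23 on the control arrays, where 6 of the 7 phenytoin arrays were below every control, a difference of -0.50 ± 0.12 (adjusted p = 0.0146). Among probe sets that were not the brightest of their gene, those of the channel-interacting proteins Kcnip2 (-0.59, adjusted p = 0.00745) and Kcnip4 (-0.49, adjusted p = 0.00936) fell, and that of Kcnd2, an A-type channel of dendrites, rose (0.48, adjusted p = 0.00353).

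Of 27 scaffold and spine regulators, 6 rose and none fell: Sipa1l1, its relative Sipa1l2 (0.33, adjusted p = 0.0221), the actin-binding phosphatase regulator Ppp1r9b (0.47, adjusted p = 0.0119), the scaffolds Shank3 (0.38, adjusted p = 0.0327), Dlgap3 (0.55, adjusted p = 0.0163) and Dlgap4 (0.34, adjusted p = 0.0134). The median over the list was 0.07 with all arrays and 0.15 without the array labelled phenytoin hippocampus 7, when 7 rose. Over all genes 4.74% rose with all arrays and 6.98% without that array. With the Gapdh covariate Sipa1l1 alone remained. Of 18 calcium/calmodulin kinase and calcineurin genes 2 rose, Camk2g (0.40, adjusted p = 0.00655) and Camk2a, the abundant kinase of excitatory synapses. Camk2a read 11.004, 11.67 and 12.03 on the phenytoin arrays and 9.93, 10.32 and 11.43 on the control arrays. Its difference of 0.96 ± 0.24 (adjusted p = 0.0152) was 1.95-fold, but control arrays 3, 5 and 7 were above the lowest phenytoin array. Without the array labelled phenytoin hippocampus 7 it was 1.01 (adjusted p = 0.00916), and 5 of the 18 rose, among them the calmodulin-binding protein gene Nrgn. On the deposited scale without quantile normalization the same 2 rose, and Calm2 and Ppp3ca fell.

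Of 19 glutamate receptor genes 3 rose and none fell, beside 4.74% and 4.36% of all genes. Grin1, the obligatory NMDA receptor subunit, read 8.99, 9.499 and 10.001 on the phenytoin arrays and 8.91, 8.98 and 9.18 on the control arrays. It was higher by 0.48 ± 0.11 (adjusted p = 0.0102), with the array labelled phenytoin hippocampus 7 and phenytoin hippocampus 5 within the control range. The others were the NMDA subunit Grin2c (0.33, adjusted p = 0.0333) and the metabotropic receptor Grm3 (0.33, adjusted p = 0.0387). Without the array labelled phenytoin hippocampus 7 they were joined by the AMPA subunit Gria2, which stood at 0.07 (adjusted p = 0.74) with it and 0.22 (adjusted p = 0.0209) without it, and by Grin2a and Grik5. Of 16 genes of GABA receptors, synthesis and transport, the GABA-A receptor subunit Gabrb1 alone rose (0.27, adjusted p = 0.0266), with groups that did not overlap; on the deposited scale Gabbr1 also fell, and without the array labelled phenytoin hippocampus 7 Gabrg1 fell.

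Presynaptic genes gave 6 of 39 that rose and none that fell, and 12 that rose and 1 that fell without the array labelled phenytoin hippocampus 7. The shares of all genes that rose were 4.74% and 6.98%. Synj1, the phosphatase that uncoats endocytic vesicles, read 9.60, 10.22 and 10.65 on the phenytoin arrays and 9.32, 9.66 and 10.01 on the control arrays, a difference of 0.48 ± 0.12 (adjusted p = 0.016), and its groups overlapped. The other 5 were complexin Cplx1 (0.28, adjusted p = 0.0232), the vesicle SNARE Vamp2 (0.26, adjusted p = 0.0416), synapsin Syn1 (0.30, adjusted p = 0.0444), the priming factor Unc13c (0.62, adjusted p = 0.0232) and Sv2a (0.28, adjusted p = 0.0282), the vesicle protein that levetiracetam binds. Synaptophysin, Syp, moved from 0.38 (adjusted p = 0.0503) to 0.52 (adjusted p = 0.000557) and dynamin, Dnm1, from 0.26 (adjusted p = 0.0691) to 0.35 (adjusted p = 0.00113) when that array was left out. The list was uneven: 20 members were above 0 and 19 below, and on the deposited scale without quantile normalization 3 rose and 1 fell with a median of -0.01. With the Gapdh covariate none rose and Sypl1 fell. Dimmer second probe sets of Vamp1, Vamp4, Napg and Sh3gl2 fell.

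Where 4.74% of all genes rose and 4.36% fell, 8 of 30 cytoskeletal genes rose and 1 fell. Beside Map1a these were the dynein heavy chain Dync1h1 (0.46, adjusted p = 0.0022), the neurofilament Nefh (0.44, adjusted p = 0.00882), the kinesins Kif5a (0.57, adjusted p = 0.0135) and Kif5c (0.50, adjusted p = 0.011), the tubulin Tubb4a (0.39, adjusted p = 0.0232), Dctn1 and Ttl. Tuba4a fell. Without the array labelled phenytoin hippocampus 7, 12 rose and 2 fell, with tau, Mapt, and Map1b among those added. Of all genes 6.98% rose and 5.72% fell without it. With the Gapdh covariate Map1a alone passed, and on the deposited scale 7 rose and 3 fell.

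A list of activity-induced genes, many of which neurons switch on after firing, gave 2 of 21 that fell and none that rose. Among all genes 4.36% fell. Of the 21, 16 were below 0. The genes of this list that fell were the AP-1 subunit Jund (-0.45, adjusted p = 0.0234) and the nuclear receptor Nr4a2 (-0.29, adjusted p = 0.0466). Jund alone fell on the deposited scale, and Nr4a2 did not pass in 21 of 34 alternative settings. Neither passed with the Gapdh covariate. Fos stood at -0.46 (adjusted p = 0.284) with all arrays and -0.74 (adjusted p = 0.0138) without the array labelled phenytoin hippocampus 7.

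Of 31 tested genes of proteasome subunits and associated factors 6 fell and none rose, and 26 were below 0; the median was -0.09 with all arrays and without the array labelled phenytoin hippocampus 7, and the same 6 fell in both. Over all genes 4.36% fell with all arrays and 5.72% without that array. On the deposited scale 8 of the 31 fell. Psma1, an alpha subunit of the core particle, read 8.96, 9.16 and 9.42 on the phenytoin arrays and 9.41, 9.47 and 9.69 on the control arrays. Phenytoin hippocampus 5 alone reached the control range, and the difference was -0.35 ± 0.07 (adjusted p = 0.00418). Psmc6, an ATPase of the regulatory particle, read 8.76, 8.98 and 9.29 on the phenytoin arrays and 9.07, 9.40 and 9.66 on the control arrays, a difference of -0.41 ± 0.09 (adjusted p = 0.00655), with control hippocampus 7 inside the phenytoin range. The others were Psma2 (-0.30, adjusted p = 0.0087), Psma4 (-0.29, adjusted p = 0.0188), the lid subunit Psmd6 (-0.28, adjusted p = 0.0104) and the shuttle factor Rad23b (-0.27, adjusted p = 0.0172), which carries ubiquitinated proteins to the proteasome and is no subunit. None of the 6 passed with the Gapdh covariate, where the median over the list was -0.07.

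Of 66 mitochondrial respiration genes 4 fell, beside 4.36% of all genes, none rose and 47 were below 0. The 4 were the complex III subunit Uqcrc2 (-0.22, adjusted p = 0.0146), the complex II subunit Sdhd (-0.29, adjusted p = 0.0124), the complex I subunit Ndufb8 (-0.38, adjusted p = 0.014) and the complex IV subunit Cox5a (-0.49, adjusted p = 0.00782); 8 fell without the array labelled phenytoin hippocampus 7, and 8 on the deposited scale, where 60 were below 0. Of 17 glycolysis genes the phosphofructokinase gene Pfkm rose (0.22, adjusted p = 0.0226) and none fell, but on the deposited scale without quantile normalization none rose and 3 fell. Pfkm, Aldoa, Eno1, Gpi and Hk1 rose without the array labelled phenytoin hippocampus 7, 5 in all. Of 32 cytosolic ribosomal protein genes Rpl21 fell (-0.29, adjusted p = 0.0423) and 19 were below 0 with all arrays. The number that fell was 5 without the array labelled phenytoin hippocampus 7, and on the deposited scale 2 fell and 30 were below 0. Among 32 genes of the heat shock and endoplasmic reticulum stress responses, the chaperones Dnajb6 (-0.57, adjusted p = 0.0135) and Dnajb9 (-0.48, adjusted p = 0.00504) fell. Pdia3 and Atf4 fell as well and Hsp90ab1 rose without the array labelled phenytoin hippocampus 7. For these lists, 4.74% of all genes rose and 4.36% fell with all arrays, and 6.98% and 5.72% without that array. On the deposited scale 5.01% of probe sets were higher and 4.92% lower.

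**Figure D5:**
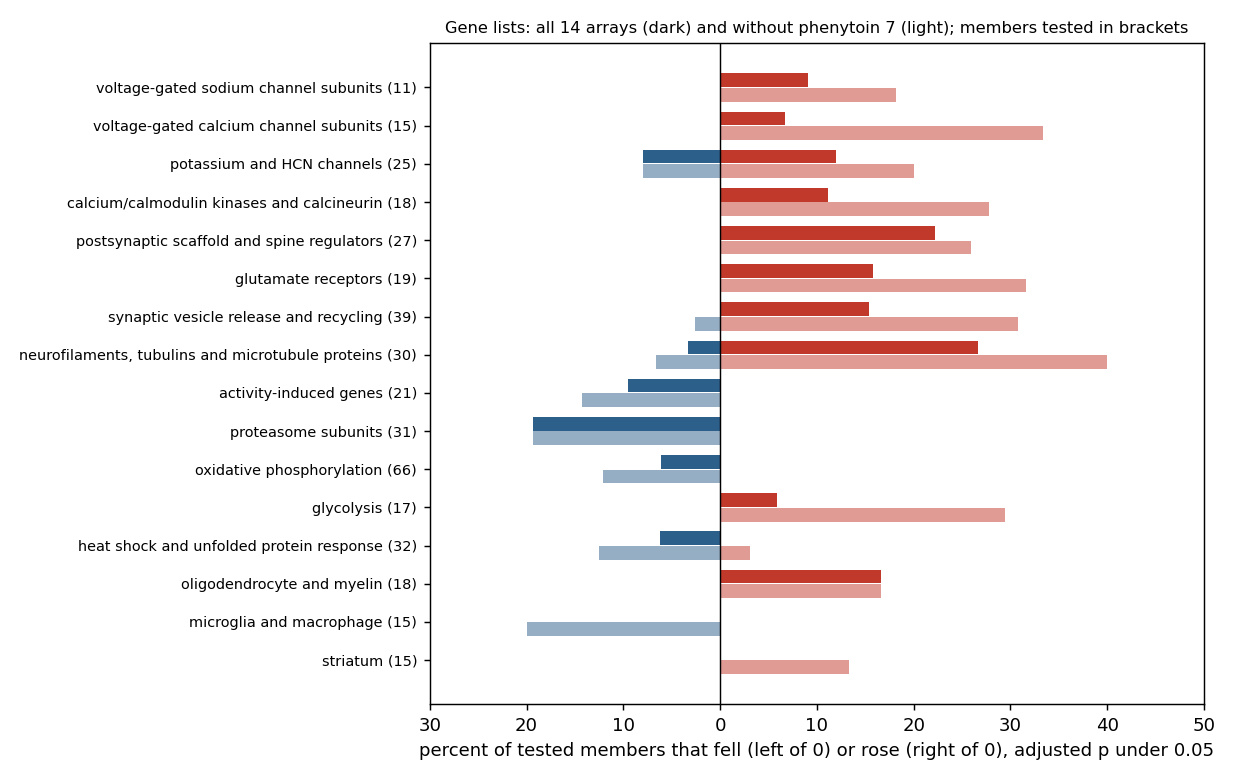
Share of the tested members of 16 gene lists (percent, horizontal axis) that rose (red, right) or fell (blue, left) at an adjusted p under 0.05, with all 14 arrays (dark bars) and without the array labelled phenytoin hippocampus 7 (light bars). The cytoskeletal list has 8 of 30 that rose and the proteasome list 6 of 31 that fell; over all genes 4.74% rose and 4.36% fell with all arrays, and 6.98% and 5.72% without that array.

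Lists of drug, folate and sterol metabolism and of interferon and clock genes gave 1 or 2 values each past the threshold. With all arrays these counts are near the shares of all genes, of which 4.74% rose and 4.36% fell. Without the array labelled phenytoin hippocampus 7 those shares were 6.98% and 5.72%. Of 25 genes of xenobiotic metabolism and efflux, the transporter Abcc1 rose (0.52, adjusted p = 0.0208) and the glutathione transferase Gsta1 fell (-0.42, adjusted p = 0.0365), joined by Nqo1 without the array labelled phenytoin hippocampus 7. Of 11 folate and one-carbon genes Ggh, which trims folate polyglutamates, fell (-0.28, adjusted p = 0.0179). Of 19 cholesterol synthesis genes Fdps fell (-0.31, adjusted p = 0.0152), joined by Msmo1 and Idi1 without the array labelled phenytoin hippocampus 7. With all arrays 13 of the 19 were below 0, with a median of -0.11. With the Gapdh covariate 18 were below 0, with a median of -0.14, and none passed. Of 14 interferon-responsive genes Mx2 rose (0.79, adjusted p = 0.0156), and B2m fell without that array. Of 18 circadian genes 16 were above 0 and Rorb alone rose (0.47, adjusted p = 0.0378), which did not pass without the array labelled phenytoin hippocampus 7 (0.38, adjusted p = 0.065).

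Cell type markers differed most on the array labelled phenytoin hippocampus 7. Of 18 oligodendrocyte and myelin genes 17 were above 0 with a median of 0.21 with all arrays, and 12 with a median of 0.05 without the array labelled phenytoin hippocampus 7. The same 3 rose in both cases: the myelin enzyme Cnp and the transcription factors Myrf (0.56, adjusted p = 0.0199) and Sox10. Among all genes the shares that rose were 4.74% with that array and 6.98% without it. Cnp read 10.83, 11.31 and 11.87 on the phenytoin arrays and 10.71, 10.84 and 11.14 on the control arrays, and the difference was 0.48 (adjusted p = 0.0111) with that array and 0.40 (adjusted p = 0.00964) without it. Sox10 read 7.13, 7.63 and 8.77 on the phenytoin arrays and 6.68, 7.04 and 7.59 on the control arrays, where the array labelled phenytoin hippocampus 7 was the highest, and the difference was 0.68 (adjusted p = 0.023) with it and 0.53 (adjusted p = 0.0263) without it. The summed signal of 17 of these markers was 35791 on that array, 17988 to 23840 on the other 6 phenytoin arrays and 18630 to 24445 on the controls. With the Gapdh covariate the median over the list was -0.05, 12 of 18 were below 0 and none passed; without that array and with the covariate Mobp fell.

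Neuron markers gave 6 of 21 that rose (Camk2a, Syn1, Nefh, Rbfox3, Reln and Elavl3) and none that fell. Of these, Camk2a, Syn1 and Nefh were already counted in the lists of kinase, presynaptic and cytoskeletal genes. No neuron marker passed with the Gapdh covariate or with the spike-in covariate. On the deposited scale 5 rose and Snap25 fell. Without the array labelled phenytoin hippocampus 7, 7 rose and Vip fell. Over all genes 4.74% rose with all arrays and 6.98% without that array. The neuron markers had summed signals of 30510 to 35151 on 6 phenytoin arrays, 27131 on the array labelled phenytoin hippocampus 7 and 27720 to 31805 on the controls. Of 17 astrocyte markers Atp1b2 rose (0.32, adjusted p = 0.0363) and none fell by their brightest probe sets, while dimmer probe sets of Glul, Gja1, Slc1a3 and Id4 fell; on the deposited scale none rose and Gja1 fell, and without the array labelled phenytoin hippocampus 7 Atp1b2 rose and Slc1a2 fell. None of 15 microglia and macrophage, 17 endothelium and pericyte, 9 choroid plexus and ependyma, 2 blood or 10 thalamus and habenula markers passed with all arrays. Without the array labelled phenytoin hippocampus 7, the microglial genes P2ry12, C1qb and Gpr34 fell, beside 5.72% of all genes. Of 11 cerebral cortex markers Rorb rose and Nr4a2 fell, and Nr4a2 alone passed without that array. Both were already counted, among the circadian and the activity-induced genes.

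Striatal markers, 15 in all, had a median of 0.36 with all arrays and 0.09 without the array labelled phenytoin hippocampus 7, and none passed with it. Without it Rasd2 (0.41, adjusted p = 0.0237) and Adcy5 (0.38, adjusted p = 0.0254) rose, beside 6.98% of all genes. The summed signal without that array was 5346 to 5854 on the 6 phenytoin arrays and 5142 to 5285 on the 7 controls, with no overlap. The levetiracetam arrays summed to 5171 to 5536, which overlaps the phenytoin range. Without the array labelled phenytoin hippocampus 7, 9 of the 15 markers were above 0 and 6 below. That array summed to 19863. The part of neighbouring tissue in these values was not tested. None of the 10 dentate granule cell markers or 17 CA1 to CA3 markers passed with all arrays; their medians were -0.14 and -0.15 and became 0.01 and 0.01 without that array, when Fibcd1 rose and Ccn3 fell.

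Probe sets of the same gene often differed. Of 2821 genes with more than 1 tested probe set, 618 had at least 1 past the threshold, and in 364 of these (58.9%) all probe sets had the same sign, beside 52.4% of all such genes. Where 2 or more probe sets passed they shared a direction in 81 of 91 genes and opposed each other in 10. Among the genes with concordant probe sets, Id2, an inhibitor of basic helix-loop-helix factors, read 11.25, 11.32 and 11.39 on the phenytoin arrays and 11.49, 11.74 and 12.10 on the control arrays by its brighter probe set, with no overlap and a difference of -0.40 ± 0.07 (adjusted p = 0.00288), and the dimmer one stood at -0.30 (adjusted p = 0.04). Hnrnpa3, a splicing factor, fell by 3 probe sets, at -0.58, -0.21 and -0.17. Cops2, a subunit of the COP9 signalosome, fell by 2, at -0.55 and -0.36, and Prr12 rose by 2, at 0.49 and 0.64.

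In some genes probe sets moved in opposite directions. Mapre3, a protein of growing microtubule ends, read 8.20, 8.54 and 8.87 on the phenytoin arrays and 7.85, 8.04 and 8.30 on the control arrays by its dimmer probe set, which rose (0.48, adjusted p = 0.00445). Its brighter probe set read 10.89, 11.06 and 11.25 on the phenytoin arrays and 11.20, 11.33 and 11.47 on the control arrays and fell (-0.27, adjusted p = 0.00749). Anks1b, a postsynaptic signalling protein, read 10.24, 10.44 and 10.80 on the phenytoin arrays (6 arrays with a value) and 9.72, 9.85 and 10.27 on the control arrays by the probe set that rose (0.54, adjusted p = 0.00286). The other read 8.78, 8.93 and 9.45 on the phenytoin arrays and 9.30, 9.43 and 9.73 on the control arrays and fell (-0.42, adjusted p = 0.00966). In all 4 the groups overlapped. Zfp91, Csnk1d, Smarca2, Dmtn, Rbbp6 and Pik3ca also had probe sets past the threshold in both directions. Which transcripts these probe sets read was not analysed here.

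Phenytoin also differed from levetiracetam in the hippocampus, at 3123 probe sets (16.8%), 1492 higher (8.01%) and 1631 lower (8.76%); both comparisons use the same phenytoin arrays and are not independent. The 6 genes with the smallest p were Fnip1 (-0.63, adjusted p = 2.46e-05), Adgrb1, an adhesion receptor of synapses (0.72, adjusted p = 3.99e-05), Aplp1 (0.55), Inka2 (-0.49), Ankrd17 (0.55) and Prr12 (0.86), the last 4 at an adjusted p of 4.11e-05. Against control solution, levetiracetam gave 0.18 for Fnip1, -0.41 for Adgrb1 and -0.11 for Aplp1, with adjusted p of 0.394, 0.171 and 0.66. Leaving out the array labelled phenytoin hippocampus 7 gave 3447 probe sets, and the Gapdh covariate 956.

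The phenytoin effect differed between hippocampus and brainstem at 244 probe sets (1.31%), 94 of them higher in hippocampus (0.505%) and 150 lower (0.805%), and at 210 without the array labelled phenytoin hippocampus 7. The fit for this difference and for that between hippocampus and frontal cortex took all 62 arrays as independent. The regions may come from the same rats, and the p-values of both differences rest on that independence. Within brainstem 3 probe sets passed against control solution (0.0161%). Ttll7, a ligase that adds glutamate to tubulin, read 8.83, 9.99 and 10.25 on the phenytoin arrays (6 arrays with a value) and 8.36, 8.46 and 9.79 on the control arrays in hippocampus. Its difference was 0.99 ± 0.21 there and -0.28 in brainstem, and the 2 differed by 1.27 (adjusted p = 0.0061). Hnrnpa3 read 9.63, 9.96 and 10.17 on the phenytoin arrays and 10.23, 10.44 and 11.01 on the control arrays, without overlap, and its difference of -0.58 in hippocampus stood against 0.11 in brainstem (adjusted p = 0.00953 for the difference). A dim probe set of Rad23b stood at -0.96 and 0.78, Tiparp, a target of the aryl hydrocarbon receptor, at -0.77 and 0.39, and Ap3s1 at -0.47 and 0.13. With the Gapdh covariate no probe set passed this limma test, and 1700 had an unadjusted p under 0.05. Leaving out 1 array moved the 244 by over 1.5 times for 6 arrays: 159, 138, 47 and 630 without phenytoin hippocampus 1, 2, 3 and 5, and 74 and 86 without control hippocampus 1 and 2.

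Between hippocampus and frontal cortex the phenytoin effect differed at 2682 probe sets (14.4%), 1039 of them higher in hippocampus (5.58%) and 1643 lower (8.82%), at 2701 without the array labelled phenytoin hippocampus 7 and at 1718 with the Gapdh covariate. Within frontal cortex 1191 probe sets passed against control solution (6.39%), 952 higher (5.11%) and 239 lower (1.28%). The 6 genes with the smallest p all stood below 0 in hippocampus and rose in cortex: the ubiquitin-conjugating enzyme Ube2d2 (-0.41 and 2.09), the translation inhibitor Pdcd4 (-0.34 and 1.90), Serinc1 (-0.24 and 1.44), the ubiquitin ligase adaptor Klhl2 (-0.26 and 2.20), the phosphatase subunit Ppp1cb (-0.33 and 1.33) and the Rap exchange factor Rapgef4 (-0.32 and 1.67). In hippocampus Klhl2 and Rapgef4 did not pass (adjusted p = 0.0953 and 0.0562).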

How the data were processed

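Hippocampal RNA from rats on phenytoin, levetiracetam or control solution was measured on 1-channel Affymetrix arrays, 62 in the study. The deposited intensity values are linear signals whose trimmed mean (2% at each end) is about 150 on arrays without missing values; the software that made them was not given in the sources used here. In R 4.3.3 with limma 3.58.1, log2(value + 16) was quantile normalized over all arrays on the 26300 probe sets with a value everywhere, because array medians spanned 5.65 to 6.32, more than 0.5. The dimmest 40% were left out, and lmFit and eBayes with an intensity trend were fitted to the 21 hippocampus arrays; regional differences used all 62. Benjamini-Hochberg adjustment ran over all 18625 probe sets. Probe sets with several gene symbols were not named, and a gene in a list is its brightest probe set. Named genes were those with the smallest p per direction at level 7 or more (12), concordant or opposed probe sets (8), those passing with the Gapdh covariate (16), members of 33 lists (1 of which is not reported here), sodium channels, and 6 per difference test; the text describes most of them. Members and lists were chosen with earlier results of these data known. Counts without the array labelled phenytoin hippocampus 7 use the same normalized values. The fit was tested on simulated data, and no pair of arrays held identical values. Precision is limited by the number of arrays.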

Additional observations from a re-analysis of the deposited data

Results flagged for a closer look

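In 7 of the 76 groups of arrays examined, 1 array lay far from the rest. Of the 7, 4 were the array labelled phenytoin hippocampus 7 and 2 were control hippocampus 1. The cut-off is set for about 1 in 20 by chance. That rate does not hold here, because the groups share the same arrays and the genes were chosen with results known. The array labelled phenytoin hippocampus 7 was far above the other phenytoin arrays for Bcr (10.20) and Scn1a (9.56) and far below them for Scn2a (8.995) and Cacna1g (5.32). Control hippocampus 1 was far above the other controls in spike-in signal (11.54) and for Ap3s1 (9.95). Control hippocampus 7 was far above the other controls for Grin1 (9.18).

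The phenytoin effect differed between hippocampus and brainstem at 244 probe sets. Of the genes named for it, the differences of the 2 effects were -1.74 for Rad23b, 1.27 for Ttll7, -0.69 for Hnrnpa3, -1.16 for Tiparp, -0.60 for Ap3s1 and 0.66 for Anks1b, at adjusted p of 0.0061 to 0.0122. Between hippocampus and frontal cortex 2682 probe sets differed, with differences of -2.50 for Ube2d2, -2.24 for Pdcd4, -1.68 for Serinc1, -2.46 for Klhl2, -1.66 for Ppp1cb and -1.99 for Rapgef4, at adjusted p of 4.1e-12 or less. The regions may come from the same rats. The fit took the arrays as independent, and these p-values rest on that.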

How the results depend on the processing

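The 1721 differences between phenytoin and control solution, 847 higher and 874 lower, became 573 (278 and 295) with quantile normalization of the 14 arrays only, 581 (283 and 298) with only those arrays in the fit, 1259 (560 higher) with all 62 arrays in 1 fit, 2663 (1336 and 1327) with array weights, 17 (9 and 8) with the Gapdh ratio as covariate, 43 (26 and 17) with the spike-in signal as covariate, 989 (511 and 478) with 1 probe set per gene and 2956 (1461 and 1495) at an adjusted p of 0.1. Leaving out 1 array gave 905 to 2514 in all, 455 to 1224 higher and 444 to 1332 lower; the total moved by over 1.5 times without phenytoin hippocampus 3 or control hippocampus 2 (905 each), and the lower count without phenytoin hippocampus 5 (1332). Settings chosen after seeing the data gave 222 (130 and 92) without the array labelled phenytoin hippocampus 7 and with the Gapdh covariate, and 223 (124 and 99) with the spike-in covariate in its place; without that array and control hippocampus 1 the count was 2054. The other settings kept the total within 1.5 times. Of the 1721, all kept their sign with each covariate and in each run that left out 1 array, and 1 changed sign on the deposited scale.

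The difference from levetiracetam (3123) became 956 with the Gapdh covariate and 2212 to 3879 leaving out 1 array. The difference from brainstem (244) became 157 on the deposited scale, 149 without a filter, 659 with array weights, 0 with the Gapdh covariate by limma (1700 at an unadjusted p under 0.05), 89 without both outlying arrays and 47 to 630 leaving out 1 array. The difference from frontal cortex (2682) became 4752 with array weights, 1718 with the Gapdh covariate and 2239 to 3078 leaving out 1 array. The cause of these changes was not tested. The Gapdh ratio difference ranged from 0.114 to 0.178 leaving out 1 array and was 0.0885 without both outlying arrays (exact permutation p = 0.0866, n = 6 each), and the spike-in difference from -0.382 to -0.231.

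With the replicate number as a block (replicate block) the count was 1221, 597 higher and 624 lower. The labels do not say that a number marks shared rats or batches. Same-numbered arrays correlated at -0.203 to 0.048 in their deviations from the group means, and no array correlated best with its own number. No pairing by number was seen, but a low correlation cannot exclude shared rats or batches. Of the 147 probe sets past the threshold that the naming rule chose, not all of which the text describes, 11 passed in every one of up to 34 settings and none changed sign.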

Other observations

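Some genes passed only without the array labelled phenytoin hippocampus 7; those given here were chosen after their values were seen. Dgkg, a diacylglycerol kinase, stood at -0.07 (adjusted p = 0.922) with all arrays and at 0.39 (adjusted p = 0.000557) without it. Sorl1, a sorting receptor of the endosome, stood at 0.31 (adjusted p = 0.137) and 0.46 (adjusted p = 0.000602).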
